A study of Mus musculus with 12 samples.

Results

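The transcripts described here are 31 textbook targets of the transcription factor p53 that lie outside its core feedback loop and outside the BCL2 family. They were found in the deposited gene table as known genes whose symbol equals a listed name. All 31 were found among 33625 genes, of which 22036 were known genes. RNA was sequenced from MODE-K cells, a mouse line labelled small intestine epithelium with a wild-type genotype, in 12 libraries of 4 groups of 3. The irradiated groups were cells taken 48 h after 12 Gy (12Gy_48h), 24 h after 12 Gy (12Gy_24h) and 48 h after 4 Gy (4Gy_48h) of gamma rays from a cobalt source, and the controls were cells given 0 Gy and taken at 0 h. All groups were grown in the same serum-containing medium. Because the controls were taken at 0 h, irradiation and time in culture cannot be told apart in a comparison with control.

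p53 is stabilised when DNA is broken, since kinases of the damage response release it from the ubiquitin ligase MDM2, and it then binds response elements near its target genes. The targets fall into broad roles: death receptors and apoptosis factors, DNA repair and nucleotide supply, growth arrest and stress signalling, and metabolism. In the intestinal epithelium p53 is known for its part in the loss and repair of crypt cells after radiation. MODE-K cells were immortalised with the large T antigen of SV40, a viral protein that binds p53, which limits the line as a model of p53 signalling. Whether large T was present in these cultures was not measured here.

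The 3 libraries of a group are parallel cultures by the treatment protocol. Each library held between 3616416 and 4831641 assigned reads. The labelled cell type was checked on marker genes in CPM after TMM scaling (read counts per library total, with totals adjusted by edgeR's trimmed mean of M values). Of 7 epithelial markers only Krt18 reached 1 CPM in every control, Epcam, Cdh1 and Cldn4 were at 0 in all controls and Cldn7 was at 0 throughout, and none of 9 intestinal lineage markers reached it. Of 8 mesenchymal markers Vim, Col1a1, Col1a2 and Pdgfrb were above 1 CPM in every control, so the label of intestinal epithelium was not borne out by these markers. The summed mesenchymal markers ran from 1398 to 1899 CPM at 12Gy_48h, 2512 to 2875 CPM at 12Gy_24h, 1255 to 1713 CPM at 4Gy_48h and 668 to 1161 CPM in the controls, and their part in the results below was not tested. Vim and Col1a2 made up nearly all of that sum. Other markers moved differently: Pdgfrb averaged 0.935 CPM at 12Gy_24h and 2.95 CPM in the controls, and Col1a1 averaged 9.15 CPM at 12Gy_24h and 8.73 CPM in the controls. Dcn was at 0 in the 12Gy_24h libraries, but at only 0.43, 0.768 and 0.268 CPM in the controls. Over the 12Gy_24h group 3 reads make 0.259 CPM, so these values are near the floor. The epithelial Krt18 averaged 15.0 CPM at 12Gy_24h and 3.29 CPM in the controls. The immune marker Cd68 averaged 35.0 CPM at 12Gy_48h and 18.2 CPM in the controls, while Ptprc, Cd3e and Adgre1 were at 0 throughout. The endothelial Tie1 averaged 14.2 CPM at 12Gy_48h and 6.21 CPM in the controls. Loci typed as new genes by the authors (new loci, which leave out those typed as long noncoding RNA) took 14 to 15.1% of the reads at 12Gy_48h. They took 11.9 to 12% at 12Gy_24h, 15.1 to 16.9% at 4Gy_48h and 19.8 to 21.7% in the controls. When new loci and known genes were scaled together, known genes had a median log2 difference from control of 0.20 (12Gy_48h), 0.23 (12Gy_24h) and 0.14 (4Gy_48h). In a second fit restricted to known genes these medians were 0.01, -0.00 and -0.01. Unless that second fit is named, each log2 fold change given here includes the shift. In bulk RNA, fewer cells expressing a gene and less RNA per cell cannot be told apart.

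At 12Gy_24h against control 8 of 29 tested targets fell, led by the death receptor gene Fas and by Pidd1, and 1 rose. That split changed when single libraries were left out. Without 12Gy_24h replicate 1, 6 fell and 1 rose. Without 12Gy_24h replicate 2, 3 fell and 3 rose, and without 12Gy_24h replicate 3, 3 fell and 1 rose. Without control replicates 1, 2 and 3 in turn, 10, 4 and 3 fell and 0, 1 and 0 rose. Each of these fits was filtered and scaled anew. The median log2 difference of known genes from control was 0.35 without 12Gy_24h replicate 2 or 3. It was 0.31 without control replicate 2 or 3, 0.27 without control replicate 1, 0.25 without 12Gy_24h replicate 1 and 0.23 with all libraries. The part of that shift in the changed counts was not tested. Between 24 h and 48 h after 12 Gy, 9 of 29 were higher at the later time and 1 was lower, and without each library in turn 7 to 9 were higher and 1 lower. At 12Gy_48h against control 4 rose and 2 fell, with log2 fold changes between -0.51 and 0.58. Without the filter on low counts 6 rose and 0 fell there, with Gdf15 and Phlda3 gained and Eda2r and Rps27l lost. Leaving out 12Gy_48h replicate 1 gave 1 rise and 1 fall, and leaving out 12Gy_48h replicate 2 gave 2 rises and 0 falls. At 4Gy_48h 3 fell, but 0 did without control replicate 3, 1 without control replicate 2 or 4Gy_48h replicate 2, and 6 without control replicate 1. At 48 h the 12 Gy cells had higher levels of 4 targets than the 4 Gy cells, and of 1 to 3 when a library was left out. A gene passed at an adjusted p under 0.05 in edgeR's quasi-likelihood test over all 15086 genes tested.

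These counts stand beside the following shares of all known genes in the same fit. At 12Gy_24h against control 27.6% of the tested targets were lower and 3.45% higher, against 3.99% and 26.5% of 9809 known genes. At 12Gy_48h against control 13.8% of the targets were higher and 6.9% lower, against 18.2% and 3.74% of the known genes, so the rises there were not above the background. For 4Gy_48h against control 10.3% of the targets were lower and 0 were higher, against 0.877% and 6.21% of the known genes. Between 12Gy_48h and 12Gy_24h 31% of the targets were higher and 3.45% lower, against 9.97% and 15.6% of the known genes. Between 12Gy_48h and 4Gy_48h 13.8% were higher and 0 were lower, against 2.79% and 1.55% of the known genes. New loci included, the comparison of 12Gy_48h with control had 12.9% of all tested genes higher and 20.2% lower. For 12Gy_24h the shares were 18.5% higher and 29.4% lower, and for 4Gy_48h 4.53% higher and 13% lower. The corresponding shares were 20.6% higher and 11.4% lower between 12Gy_48h and 12Gy_24h, and 2.19% and 2.49% between 12Gy_48h and 4Gy_48h.

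The median log2 fold change of the 29 tested targets was -0.28 at 12Gy_24h, 0.20 at 12Gy_48h and -0.10 at 4Gy_48h, each against control. It was 0.46 between 12Gy_48h and 12Gy_24h, where the median of the known genes was -0.06, and 0.24 between 12Gy_48h and 4Gy_48h, where that of the known genes was 0.05. With known genes fitted alone, 12 targets were lower and 0 higher at 12Gy_24h, 2 were lower and 0 higher at 12Gy_48h, and 1 was lower at 4Gy_48h. In that fit 7.91% of 9816 known genes were lower and 9.15% higher for 12Gy_24h against control. The shares were 8.04% lower and 6.76% higher for 12Gy_48h against control, and 0.57% lower and 0.754% higher for 4Gy_48h against control. The 2 comparisons among irradiated groups changed little in that fit, with 10 targets higher and 1 lower between the times (11.1% and 12.6% of known genes) and 4 higher and 0 lower between the doses (2.91% and 3.22% of known genes). The 3 comparisons with control share the same 3 control libraries. Perp and Ptp4a3 were too sparse to test, and of the 29 tested genes 16 passed in at least 1 comparison. The share of known genes that passed in at least 1 comparison was not counted, so the 16 have no background beside them.

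**Figure D1:**
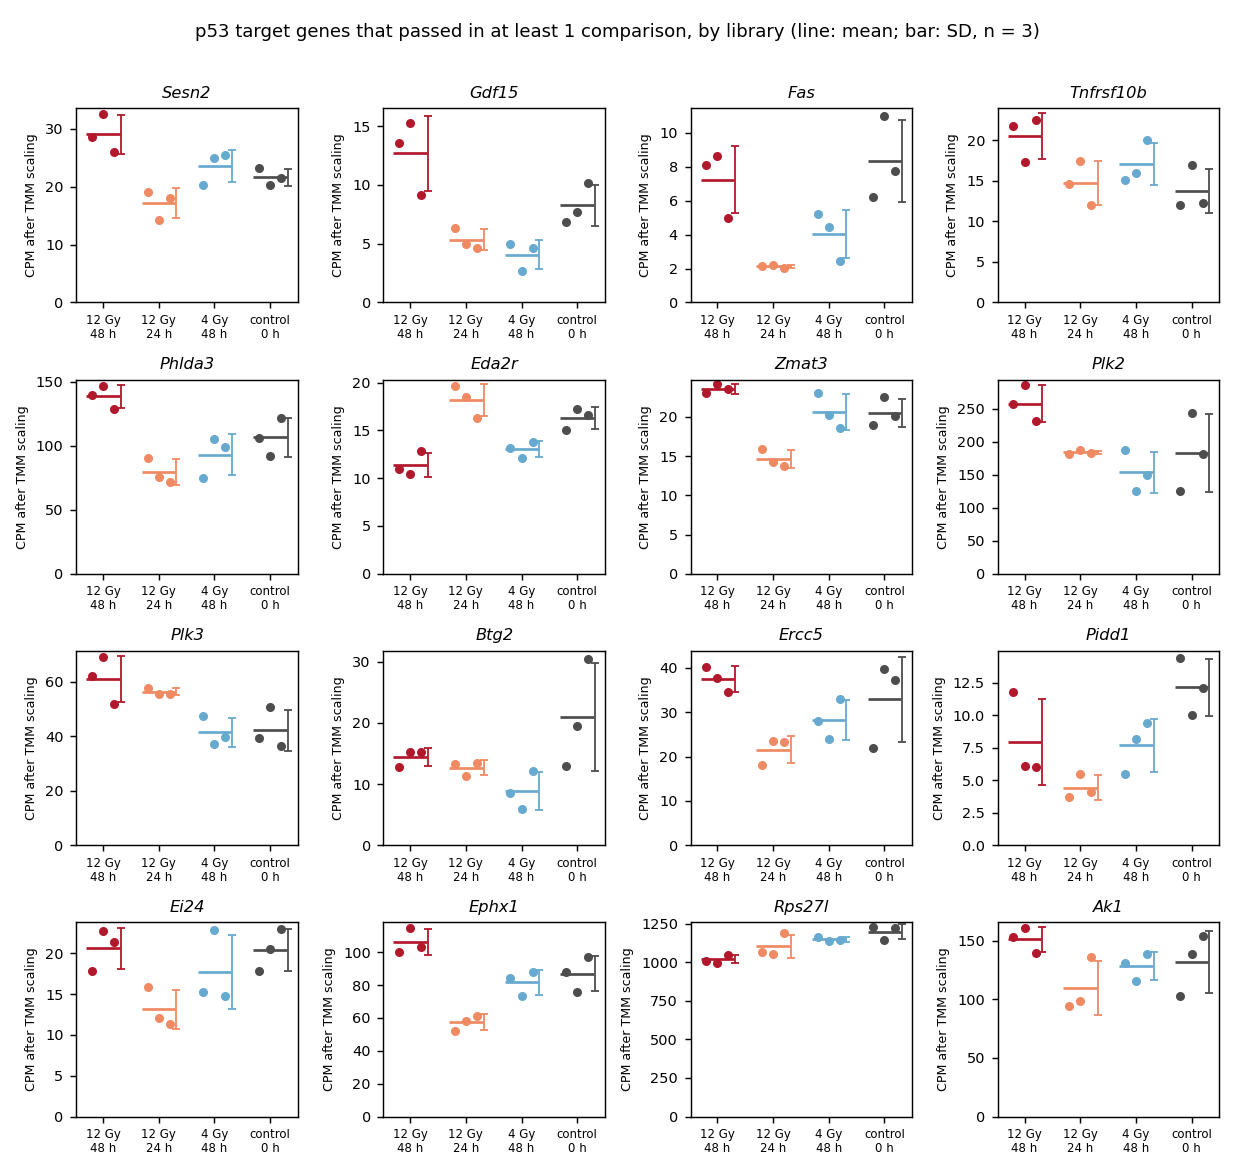
Levels of the 16 p53 targets that passed in at least 1 comparison, in CPM after TMM scaling on the vertical axis (linear, from 0), for each of the 3 libraries of the 12 Gy 48 h, 12 Gy 24 h, 4 Gy 48 h and control groups. Points are libraries, horizontal lines group means and bars the SD (n = 3). Fas sits between 2.04 and 2.20 CPM in the 12 Gy 24 h libraries, below every library of the other groups.

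p53 response elements were looked for around the starts of the target genes, as the sites where the factor is known to act. RefSeq windows on GRCm38.p6, from 250 bases before to 50 after a start, were at hand for 23 of the 31 genes, in 34 windows. Trp53inp1, Tnfrsf10b, Zmat3, Perp, Rrm2b, Ddb2, Xpc and Ptp4a3 had no entry. The search used the p53 response element consensus of 20 bases without a spacer. It reads the same on either strand. All 4 core letters had to match (CNNG in each decamer), and at most 3 mismatches were allowed elsewhere. This element was found in 4 of the 34 windows, belonging to Aen, Rps27l and Sesn1, and in 1.38% of all 32851 windows. Aen has overlapping windows, starting at chr7:78895677 and chr7:78895808, that hold the same site, which is counted in each. The same is true of its exact decamer below. A window each of Rps27l, Aen and Sesn1 is shown first, with the element in capitals. Then comes Ei24, whose capitals mark a single exact decamer of the consensus, a match found in 8.36% of all windows and in 6 of the 34, belonging to Aen, Ei24, Polk, Rps27l and Sesn1. Rps27l holds a further exact decamer at chr9:66946203-66946212, left in lower case, and the window of Polk is not shown. Fas, Pidd1 and Ephx1 follow because their fall at 24 h held under every alternative run. Their windows hold neither match and so no capitals, which says only that these letters are not in these windows. The sequences run 5′ to 3′ on the gene's strand.
Rps27l: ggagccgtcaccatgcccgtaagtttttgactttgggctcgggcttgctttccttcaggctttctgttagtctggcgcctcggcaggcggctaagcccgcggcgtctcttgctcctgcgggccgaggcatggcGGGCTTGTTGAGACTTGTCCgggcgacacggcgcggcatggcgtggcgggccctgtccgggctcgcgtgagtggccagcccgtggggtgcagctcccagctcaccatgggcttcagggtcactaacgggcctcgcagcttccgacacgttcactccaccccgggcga
Aen: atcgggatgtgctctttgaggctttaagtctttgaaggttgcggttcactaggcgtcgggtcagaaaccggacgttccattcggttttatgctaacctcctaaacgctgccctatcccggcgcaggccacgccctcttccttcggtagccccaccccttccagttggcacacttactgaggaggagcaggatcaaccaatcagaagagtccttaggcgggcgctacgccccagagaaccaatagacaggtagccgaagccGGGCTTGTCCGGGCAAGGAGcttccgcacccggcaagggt
Sesn1: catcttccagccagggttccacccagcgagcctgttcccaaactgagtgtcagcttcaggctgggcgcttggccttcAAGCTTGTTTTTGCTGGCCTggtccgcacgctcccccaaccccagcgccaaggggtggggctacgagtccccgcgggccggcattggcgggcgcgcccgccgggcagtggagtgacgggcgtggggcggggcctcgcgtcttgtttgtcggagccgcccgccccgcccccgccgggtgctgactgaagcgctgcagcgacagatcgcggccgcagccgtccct
Ei24: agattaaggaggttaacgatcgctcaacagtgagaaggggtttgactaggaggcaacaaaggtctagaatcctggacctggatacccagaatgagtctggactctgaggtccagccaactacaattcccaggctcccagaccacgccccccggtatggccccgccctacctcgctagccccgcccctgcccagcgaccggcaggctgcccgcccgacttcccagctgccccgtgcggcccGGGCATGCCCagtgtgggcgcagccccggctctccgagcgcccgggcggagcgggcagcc
Fas: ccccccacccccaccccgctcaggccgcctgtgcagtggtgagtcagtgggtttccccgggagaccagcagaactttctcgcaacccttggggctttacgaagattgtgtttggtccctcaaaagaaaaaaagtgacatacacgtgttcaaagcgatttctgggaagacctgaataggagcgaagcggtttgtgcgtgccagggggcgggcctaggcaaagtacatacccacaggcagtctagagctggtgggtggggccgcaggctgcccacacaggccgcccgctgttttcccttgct
Pidd1: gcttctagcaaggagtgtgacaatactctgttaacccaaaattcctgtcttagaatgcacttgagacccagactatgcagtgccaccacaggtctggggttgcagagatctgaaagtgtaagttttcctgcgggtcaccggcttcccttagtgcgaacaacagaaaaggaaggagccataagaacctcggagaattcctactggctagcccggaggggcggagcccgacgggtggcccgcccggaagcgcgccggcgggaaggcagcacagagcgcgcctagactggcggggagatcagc
Ephx1: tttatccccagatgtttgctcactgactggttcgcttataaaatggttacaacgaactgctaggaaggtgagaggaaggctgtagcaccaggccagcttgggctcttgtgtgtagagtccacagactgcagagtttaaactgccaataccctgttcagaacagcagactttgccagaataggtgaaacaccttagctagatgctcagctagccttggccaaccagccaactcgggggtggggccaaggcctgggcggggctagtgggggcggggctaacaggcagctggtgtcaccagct

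The window of Rps27l (chr9:66946163-66946462, plus strand) held the closest match of these genes, with 1 mismatch, at chr9:66946296-66946315. That position lies 210 bases after the GENCODE M21 start of the gene and in no annotated exon, which places it in an intron of the annotated gene. In the window of Aen (chr7:78895677-78895976, plus strand) the match had 3 mismatches and overlapped an annotated exon, 83 bases after the gene's start. The match of Sesn1 (chr10:41887189-41887488, plus strand) had 3 mismatches and lay in no annotated exon, 77331 bases after the gene's GENCODE start. The other windows shown are those of Ei24 (chr9:36797285-36797584, minus strand), Fas (chr19:34290409-34290708, plus strand), Pidd1 (chr7:141443976-141444275, minus strand) and Ephx1 (chr1:181017520-181017819, minus strand). The authors' genome build is not given in the sources used here, and genes were matched to these windows by symbol.

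The death receptor genes did not move as a block. Fas, which encodes the receptor for Fas ligand (chr19:34290666-34327772 on GRCm38), had 8.11, 8.66 and 4.97 CPM at 12Gy_48h, 2.12, 2.20 and 2.04 CPM at 12Gy_24h, 5.19, 4.44 and 2.43 CPM at 4Gy_48h and 6.23, 11.0 and 7.77 CPM in the controls. All 3 libraries at 24 h were below every other library, and the values at 12Gy_48h and in the controls overlapped. Fas fell at 12Gy_24h with a log2 fold change of -1.95 (SE 0.35, adjusted p = 0.000234), and was higher at 12Gy_48h than at 12Gy_24h by 1.76 (SE 0.36, adjusted p = 0.0017). Set against control, 12Gy_48h gave -0.19 (SE 0.29, adjusted p = 0.64). Fas also fell at 4Gy_48h, by 1.03 on the log2 scale (SE 0.31, adjusted p = 0.0303). In the fit restricted to known genes it did not pass (adjusted p = 0.0647), nor with DESeq2 (0.0576) and without any 1 of control replicates 2 and 3 and 4Gy_48h replicates 2 and 3 (0.0708 to 0.161), and between the doses at 48 h the difference was 0.84 (adjusted p = 0.136). Fas was read 7 to 43 times per library.

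Pidd1 encodes a death-domain protein of the PIDDosome, the platform that activates caspase-2 (chr7:141438113-141444025). Its levels were 11.8, 6.11 and 6.01 CPM at 12Gy_48h, 3.72, 5.51 and 4.08 CPM at 12Gy_24h, 5.45, 8.14 and 9.44 CPM at 4Gy_48h and 14.4, 9.99 and 12.1 CPM in the controls. The 24 h libraries were below all controls, and at 48 h after 12 Gy 1 library lay among the controls while the others were below them. Pidd1 fell at 12Gy_24h by 1.45 on the log2 scale (SE 0.30, adjusted p = 0.000789). Its values in the other comparisons were -0.61 at 12Gy_48h (adjusted p = 0.0955), -0.67 at 4Gy_48h (adjusted p = 0.106) and 0.84 between 12Gy_48h and 12Gy_24h (adjusted p = 0.0556). It passed at 12Gy_48h without 12Gy_48h replicate 1 (-0.99, adjusted p = 0.0175) and between the times without 12Gy_48h replicate 3 (1.00, adjusted p = 0.0378).

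Tnfrsf10b, the gene of the mouse receptor for the death ligand TRAIL, was not called at 12Gy_24h, where Fas and Pidd1 fell. It had 21.7, 17.3 and 22.5 CPM at 12Gy_48h against 12.0, 16.9 and 12.3 CPM in the controls, values that did not overlap but came close. The gene rose at 12Gy_48h by 0.58 (SE 0.19, adjusted p = 0.03). The call was lost with known genes alone (0.39, adjusted p = 0.188), with DESeq2 (adjusted p = 0.0797) and without any 1 of control replicates 1 and 3 and 12Gy_48h replicates 1 and 3 (0.08 to 0.0909). At 12Gy_24h and 4Gy_48h it was 0.10 and 0.31 from control (adjusted p = 0.726 and 0.307). Of its 31-base words, 11.4% also occur in transcripts of other genes. Whether reads were shared was not tested.

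Eda2r, which encodes the X-linked ectodysplasin A2 receptor of the same receptor family, had 11.0, 10.4 and 12.8 CPM at 12Gy_48h, 19.6, 18.5 and 16.3 CPM at 12Gy_24h, 13.2, 12.1 and 13.8 CPM at 4Gy_48h and 15.0, 17.2 and 16.6 CPM in the controls. It was low in both 48 h groups and higher in every 24 h and control library. Eda2r was lower at 12Gy_48h than at 12Gy_24h by 0.67 on the log2 scale (log2 fold change -0.67, SE 0.16, adjusted p = 0.00574), the only target called lower in that comparison. Against control it fell at 12Gy_48h (-0.51, SE 0.16, adjusted p = 0.025), and with known genes alone it did so too (-0.69, adjusted p = 0.00849). The fall against control was lost with DESeq2 (adjusted p = 0.0736), without the filter on low counts (0.134) and without any 1 of control replicates 2 and 3 and 12Gy_48h replicates 1 and 2 (0.0841 to 0.129).

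Among the other apoptosis genes, Phlda3 encodes a protein that blocks activation of the survival kinase AKT (chr1:135766119-135769136). It had 140.0, 147 and 129 CPM at 12Gy_48h, 90.8, 76.0 and 71.5 CPM at 12Gy_24h, 75.0, 105 and 99.3 CPM at 4Gy_48h and 106, 91.9 and 122 CPM in the controls. Every 12Gy_48h library was above every library of the other groups. Phlda3 was higher at 12Gy_48h than at 12Gy_24h by 0.80 (SE 0.15, adjusted p = 0.000714) and than at 4Gy_48h by 0.57 (SE 0.15, adjusted p = 0.034). The difference between the doses was lost without any 1 of 4Gy_48h replicates 1 and 3 and the 3 libraries of 12Gy_48h (adjusted p = 0.0565 to 0.146), and with the replicate number as a block (0.06). Phlda3 fell at 12Gy_24h against control (-0.42, SE 0.15, adjusted p = 0.0261), a call lost without control replicate 3 (-0.23, adjusted p = 0.235), 12Gy_24h replicate 2 (-0.27, 0.199) or 12Gy_24h replicate 3 (-0.22, 0.262), and without the filter on low counts (0.137). Phlda3 was 0.38 higher at 12Gy_48h than in control (adjusted p = 0.0513) and passed without control replicate 3 (0.0219) or the filter (0.0128).

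Zmat3, an RNA-binding zinc finger protein gene, and Ei24, which encodes a membrane protein of the endoplasmic reticulum, were also low at 24 h. Zmat3 had 23.0, 24.2 and 23.5 CPM at 12Gy_48h, against 15.9, 14.3 and 13.7 CPM at 12Gy_24h and 18.9, 22.5 and 20.1 CPM in the controls. Its groups did not overlap in any pair of these. Zmat3 was higher at 12Gy_48h than at 12Gy_24h by 0.68 (SE 0.15, adjusted p = 0.00277) and fell at 12Gy_24h against control by 0.48 on the log2 scale (SE 0.15, adjusted p = 0.0148). The fall was lost with DESeq2 (adjusted p = 0.0826), without the filter (0.183) and without any 1 of control replicates 2 and 3 and 12Gy_24h replicates 2 and 3 (0.0635 to 0.154). Ei24 averaged 20.6 ± 2.53 CPM at 12Gy_48h, 13.1 ± 2.44 CPM at 12Gy_24h and 20.5 ± 2.60 CPM in the controls (SD, n = 3). It fell at 12Gy_24h (-0.63, SE 0.20, adjusted p = 0.017) and was higher at 12Gy_48h than at 12Gy_24h (0.65, SE 0.20, adjusted p = 0.0233). Without 12Gy_24h replicates 2 or 3 the calls of Ei24 were lost in both comparisons (adjusted p = 0.127 to 0.155), as they were without control replicates 2 or 3 in the first (0.0672 and 0.114) and 12Gy_48h replicates 2 or 3 in the second (0.119 and 0.0584). The fall of Ei24 was also lost without the filter (0.0595), and the difference between the times with DESeq2 (0.0714). The exons of Ei24 overlap the antisense gene Gm26787 over 324 bases, and the strandedness of the counting is not given in the sources used here.

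Rps27l encodes a ribosomal protein-like factor and was by read number the most abundant target. It had 1010.0, 996 and 1046 CPM at 12Gy_48h and 1230.2, 1143 and 1218 CPM in the controls, which did not overlap. Rps27l fell at 12Gy_48h by a small amount (-0.23, SE 0.08, adjusted p = 0.0293). With known genes alone it was lower at 12Gy_48h (-0.42, adjusted p = 0.00129) and also at 12Gy_24h (-0.35, adjusted p = 0.00357), where the fit to all genes gave -0.12 (adjusted p = 0.231). The call at 12Gy_48h was lost without the filter (0.26) and without any 1 of control replicates 1 and 3 and the 3 libraries of 12Gy_48h (0.0509 to 0.166). Of its 31-base words 16.1% are shared with transcripts of other genes. Whether its count was affected was not tested.

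The remaining apoptosis genes did not pass in any comparison. Aen encodes an apoptosis-enhancing nuclease, and it averaged 64.7 ± 7.57 CPM at 12Gy_48h, 59.2 ± 6.64 CPM at 12Gy_24h, 54.5 ± 1.79 CPM at 4Gy_48h and 57.7 ± 4.22 CPM in the controls (SD, n = 3). Triap1, a mitochondrial lipid transfer factor with anti-apoptotic function, had its largest difference at 4Gy_48h (-0.35, SE 0.13, adjusted p = 0.0805). That value passed without control replicate 1 (adjusted p = 0.0321). Trp53inp1, a stress-induced autophagy and apoptosis factor gene, had 8.63, 10.2 and 7.84 CPM at 12Gy_48h, 5.45, 1.73 and 5.13 CPM at 4Gy_48h and 2.79, 7.68 and 10.2 CPM in the controls. The controls of Trp53inp1 spread widely and overlapped both other groups. It passed at 4Gy_48h without control replicate 1 (-1.12, adjusted p = 0.0333), and between 12Gy_48h and 4Gy_48h without the filter (1.12, adjusted p = 0.0281). Apaf1, the scaffold of the apoptosome, had 41.6, 43.8 and 41.0 CPM at 12Gy_48h, 27.1, 33.6 and 31.8 CPM at 12Gy_24h, 35.3, 33.6 and 34.3 CPM at 4Gy_48h and 19.1, 49.9 and 44.2 CPM in the controls. Its low control replicate 1 set the outcome for Apaf1: without that library the gene was lower at 12Gy_24h (-0.60, adjusted p = 0.00178) and at 4Gy_48h (-0.44, adjusted p = 0.0293), and with it neither passed (-0.28 and -0.12, adjusted p = 0.356 and 0.772). Perp, a desmosome protein gene, had 1 read in the 12 libraries, at 12Gy_24h. Its 0 reads over the controls allow up to 0.242 CPM, by counting error alone.

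The DNA repair genes mostly did not pass. Ercc5 encodes XPG, the endonuclease that cuts on the 3′ side of a lesion in nucleotide excision repair. It had 40.3, 37.7 and 34.5 CPM at 12Gy_48h, 18.0, 23.4 and 23.3 CPM at 12Gy_24h, 28.0, 23.9 and 32.9 CPM at 4Gy_48h and 21.9, 39.7 and 37.2 CPM in the controls. Apart from the low control replicate 1, the 24 h libraries were below the controls. Ercc5 was higher at 12Gy_48h than at 12Gy_24h by 0.80 (SE 0.20, adjusted p = 0.00727). It fell at 12Gy_24h against control (-0.60, SE 0.20, adjusted p = 0.022), a call lost without any 1 of control replicates 2 and 3 and the 3 libraries of 12Gy_24h (0.0683 to 0.185), while without control replicate 1 the change was at its largest (-0.82).

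The recognition factors of nucleotide excision repair were sparse. Ddb2, the damaged-DNA binding subunit gene, was read 5 to 20 times per library and Xpc, whose product recognises distorted helices, 19 to 43 times. Ddb2 differed from control by 0.27 (12Gy_48h), -0.43 (12Gy_24h) and 0.22 (4Gy_48h), with SE of 0.41 to 0.46, so changes of this size were not detectable at this depth. The exons of Ddb2 also overlap Acp2 on the other strand over 652 bases. Xpc lay 0.37, 0.35 and 0.40 above control in those groups (SE 0.27 each, adjusted p = 0.311, 0.307 and 0.34), and it passed at 12Gy_24h without 12Gy_24h replicate 2 (0.74, adjusted p = 0.0198). Polk, a translesion polymerase gene, and Rrm2b, the p53-inducible subunit of ribonucleotide reductase, did not pass in any comparison. Rrm2b had 8.80 ± 1.53 CPM at 12Gy_48h, 11.7 ± 2.61 CPM at 12Gy_24h and 11.0 ± 4.20 CPM in the controls (SD, n = 3), and its exons overlap the antisense gene Gm49085 over 734 bases.

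**Figure D2:**
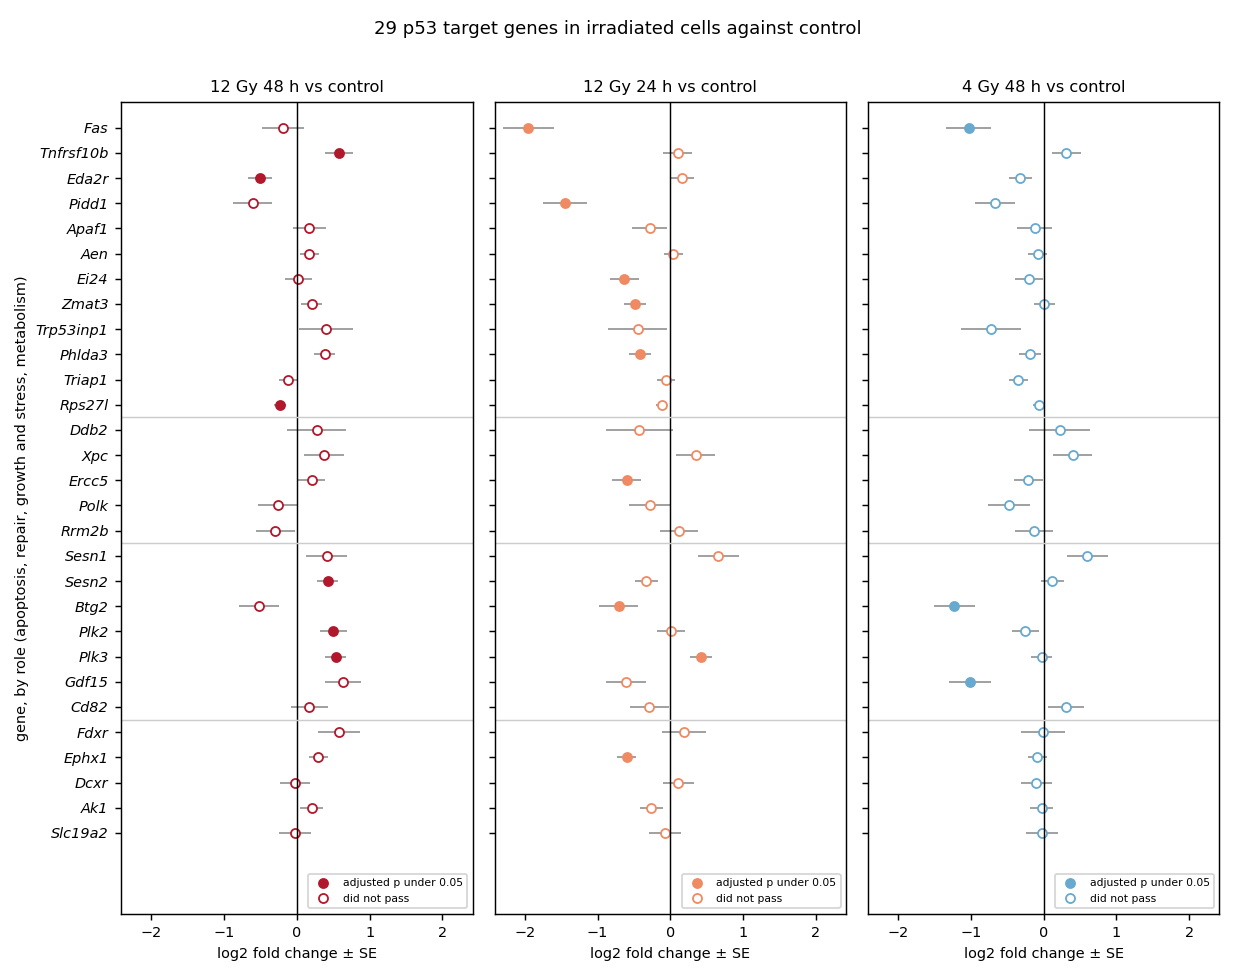
Log2 fold changes with standard errors for the 29 tested p53 targets at 12 Gy 48 h, 12 Gy 24 h and 4 Gy 48 h, each against control, on a common horizontal axis with genes listed by role. Filled points passed at an adjusted p under 0.05 in edgeR and open points did not. Fas and Pidd1 at 12 Gy 24 h lie farthest from 0, at -1.95 and -1.45.

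In the growth control and stress signalling group, Gdf15, which encodes a secreted stress cytokine of the TGF-beta family (chr8:70629393-70632456), separated the doses at 48 h. It had 13.6, 15.3 and 9.15 CPM at 12Gy_48h, 6.37, 4.96 and 4.67 CPM at 12Gy_24h, 4.93, 2.71 and 4.59 CPM at 4Gy_48h and 6.88, 7.68 and 10.2 CPM in the controls. At 48 h the 12 Gy libraries were above all 4 Gy libraries, and the controls lay above all 4 Gy libraries and overlapped the 12 Gy ones. Gdf15 was higher at 12Gy_48h than at 4Gy_48h by 1.64 (SE 0.28, adjusted p = 0.00533) and than at 12Gy_24h by 1.24 (SE 0.27, adjusted p = 0.00242). It was the only target that kept its call between the doses without each library in turn (adjusted p at most 0.0479) and with the replicate block (0.0132). Gdf15 fell at 4Gy_48h against control (-1.01, SE 0.29, adjusted p = 0.024), but not in the known-gene fit (0.0577), nor when control replicate 2, control replicate 3 or 4Gy_48h replicate 2 was left out (0.0526, 0.116 and 0.124). Gdf15 did not pass at 12Gy_48h against control (0.63, SE 0.25, adjusted p = 0.0609), but it did without control replicate 3 (0.84, adjusted p = 0.0367) or 12Gy_48h replicate 3 (0.83, adjusted p = 0.0245) and without the filter (0.70, adjusted p = 0.0366). At 12Gy_24h against control it was -0.61 (adjusted p = 0.0835), and with known genes alone -0.85 (adjusted p = 0.0463).

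The sestrin genes encode stress-induced inhibitors of mTORC1. Sesn2 had 28.5, 32.6 and 25.9 CPM at 12Gy_48h, 19.1, 14.3 and 18.1 CPM at 12Gy_24h, 20.3, 24.9 and 25.4 CPM at 4Gy_48h and 23.2, 20.2 and 21.4 CPM in the controls, so that the 12Gy_48h libraries were the highest and the 12Gy_24h libraries the lowest. It was higher at 12Gy_48h than at 12Gy_24h by 0.75 (SE 0.16, adjusted p = 0.00211). Sesn2 rose at 12Gy_48h against control by 0.42 (SE 0.15, adjusted p = 0.045). The rise was lost with known genes alone (0.23, adjusted p = 0.31), with RLE scaling (adjusted p = 0.0585), with DESeq2 (0.133), with the replicate block (0.0655) and without any 1 of control replicates 2 and 3 and 12Gy_48h replicates 1 and 2 (0.071 to 0.119). At 12Gy_24h against control it was -0.33 (adjusted p = 0.104), and the known-gene fit called it lower (-0.57, adjusted p = 0.0202). Sesn1 had 4.78, 5.51 and 7.58 CPM at 12Gy_24h against 3.44, 4.10 and 3.75 CPM in the controls. Its difference of 0.66 did not pass (SE 0.28, adjusted p = 0.0635), though it did with RLE scaling (0.0467), without the filter (0.0377) and without 12Gy_24h replicate 1 or 2 (0.0384 and 0.042). Sesn1 was read only 14 to 26 times per library.

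Btg2 encodes an anti-proliferative protein that recruits the deadenylase complex. It had 12.8, 15.3 and 15.2 CPM at 12Gy_48h, 13.3, 11.3 and 13.4 CPM at 12Gy_24h, 8.57, 5.92 and 12.1 CPM at 4Gy_48h and 12.9, 19.5 and 30.5 CPM in the controls. The controls spread widely, and control replicate 3 was the highest library. Btg2 fell at 4Gy_48h (-1.23, SE 0.28, adjusted p = 0.00695), also with known genes alone (-1.38, adjusted p = 0.0206), but without control replicate 3 the value was -0.83 (adjusted p = 0.0553). It fell at 12Gy_24h too (-0.71, SE 0.27, adjusted p = 0.041). That call was lost without control replicate 2 or any 1 of the 12Gy_24h libraries (adjusted p = 0.0778 to 0.187), with RLE scaling (0.0544) and with DESeq2 (0.0638), and the change was -0.27 without control replicate 3 (0.416). At 12Gy_48h Btg2 was -0.52 from control (adjusted p = 0.144), and it passed without control replicate 1 (-0.78, adjusted p = 0.0227).

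The polo-like kinase genes Plk2 and Plk3 were high at 48 h after 12 Gy. Plk3 had 62.0, 69.0 and 52.0 CPM at 12Gy_48h, 57.9, 55.7 and 55.7 CPM at 12Gy_24h, 47.3, 37.0 and 39.9 CPM at 4Gy_48h and 39.3, 50.7 and 36.4 CPM in the controls. All libraries given 12 Gy were above all others. Plk3 rose at 12Gy_48h (0.53, SE 0.15, adjusted p = 0.0122) and at 12Gy_24h (0.42, SE 0.15, adjusted p = 0.0296). Neither rise passed with known genes alone (0.35 and 0.18, adjusted p = 0.125 and 0.432), and that at 12Gy_24h was lost without control replicate 1, control replicate 3 or 12Gy_24h replicate 1 (0.0681, 0.0571 and 0.0585). At 48 h it was higher after 12 Gy than after 4 Gy by 0.56 (SE 0.15, adjusted p = 0.044), a call lost with the replicate block (0.057) and without any 1 of 4Gy_48h replicates 2 and 3 and 12Gy_48h replicates 1 and 2 (0.114 to 0.204). The exons of Plk3 overlap those of Tctex1d4 on the other strand over 84 bases.

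Plk2 had 257, 286 and 231 CPM at 12Gy_48h, 182, 187 and 183 CPM at 12Gy_24h, 187, 126 and 149 CPM at 4Gy_48h and 125, 243 and 181 CPM in the controls. Control replicate 2 lay among the 12Gy_48h libraries. Plk2 was higher at 12Gy_48h than at 4Gy_48h by 0.74 (SE 0.19, adjusted p = 0.0333). That call was lost with the replicate block (0.057) and without any 1 of 4Gy_48h replicates 2 and 3 and 12Gy_48h replicates 1 and 2 (0.0864 to 0.157). It rose at 12Gy_48h against control by 0.50 (SE 0.19, adjusted p = 0.0492), but not in the known-gene fit (0.30, adjusted p = 0.293). The call was also lost with RLE scaling (0.0718), DESeq2 (0.0748), the replicate block (0.0623) and without any 1 of control replicates 1 and 3 and 12Gy_48h replicates 1 and 2 (0.0865 to 0.165), with a value of 0.29 without control replicate 1. Between 12Gy_48h and 12Gy_24h Plk2 was 0.49 (adjusted p = 0.0548), and it passed in the known-gene fit (0.54, adjusted p = 0.0448) and without the filter (0.40, adjusted p = 0.0318). Cd82, a tetraspanin gene, was read 12 to 33 times per library and did not pass in any comparison. Ptp4a3, a phosphatase gene, had 2 reads over the 12Gy_48h libraries, 3 over 4Gy_48h and 0 over the 12Gy_24h libraries and over the controls.

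In the metabolic group Ephx1 encodes microsomal epoxide hydrolase, which detoxifies reactive epoxides (chr1:180976210-181020904). Its levels were 100.2, 115 and 103 CPM at 12Gy_48h, 52.0, 58.4 and 61.5 CPM at 12Gy_24h, 84.1, 73.3 and 87.9 CPM at 4Gy_48h and 87.7, 75.8 and 97.3 CPM in the controls. The 24 h libraries were below all others and the 12Gy_48h libraries above all others. Ephx1 fell at 12Gy_24h against control (-0.60, SE 0.13, adjusted p = 0.00106) and was higher at 12Gy_48h than at 12Gy_24h by 0.89 (SE 0.13, adjusted p = 0.00011), the smallest p of any target. Both calls held with known genes alone and without each library in turn (adjusted p at most 0.0157). Against control, Ephx1 at 12Gy_48h differed by 0.29 (SE 0.13, adjusted p = 0.0912), and it passed without control replicate 3 (0.0347). The exons of Ephx1 overlap the pseudogene Gm36961 over 72 bases.

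Ak1, the cytosolic adenylate kinase gene, had 153, 161 and 139.8 CPM at 12Gy_48h and 94.5, 98.4 and 136 CPM at 12Gy_24h. It was higher at the later time by 0.47 (SE 0.16, adjusted p = 0.0335), which was lost with RLE scaling (0.0751), with DESeq2 (0.0823) and without any 1 of replicates 1 and 2 of either group (0.0858 to 0.237). At 12Gy_24h against control Ak1 was -0.26 (adjusted p = 0.188), and it passed in the known-gene fit (-0.50, adjusted p = 0.0383), as it did without control replicate 1 (-0.40, adjusted p = 0.034). Fdxr, the mitochondrial ferredoxin reductase gene, averaged 7.52 ± 2.11 CPM at 12Gy_48h and 5.01 ± 1.46 CPM in the controls (SD, n = 3), a difference of 0.58 that did not pass (adjusted p = 0.135). The thiamine transporter gene Slc19a2 and Dcxr, which encodes a carbonyl reductase of xylulose metabolism, lay within 0.15 log2 of the compared group in every comparison, with SE of 0.21 to 0.22.

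**Figure D3:**
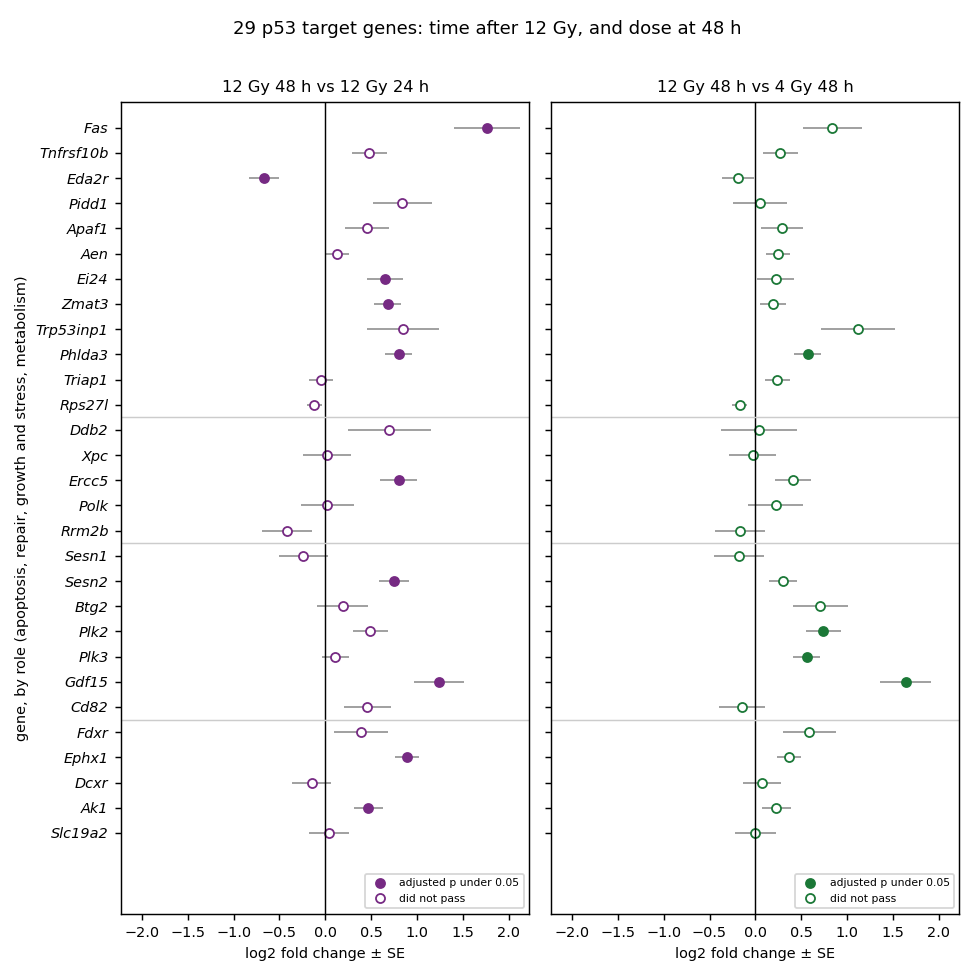
Log2 fold changes with standard errors for the 29 tested p53 targets between 12 Gy 48 h and 12 Gy 24 h (left) and between 12 Gy 48 h and 4 Gy 48 h (right), with genes listed by role. Filled points passed at an adjusted p under 0.05 in edgeR. On the left 9 filled points lie above 0 and Eda2r below it at -0.67, and on the right Gdf15 lies farthest from 0 at 1.64.

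By role, the falls at 12Gy_24h comprised 5 of 12 tested apoptosis genes, 1 of 5 repair genes, 1 of 7 growth and stress genes and 1 of 5 metabolic genes. The targets higher at 12Gy_48h than at 12Gy_24h comprised 4, 1, 2 and 2 genes of the same groups. In the same fit 3.99% of known genes were lower at 12Gy_24h against control. Between the times 9.97% of known genes were higher at 12Gy_48h. Of all calls, 3 of 9 at 12Gy_24h (Fas, Pidd1 and Ephx1) and 8 of 10 between 12Gy_48h and 12Gy_24h (Sesn2, Gdf15, Fas, Phlda3, Eda2r, Zmat3, Ercc5 and Ephx1) held both with known genes alone and without each library in turn. Between 12Gy_48h and 4Gy_48h 1 of 4 did (Gdf15), and against control 0 of 6 at 12Gy_48h and 0 of 3 at 4Gy_48h. In the authors' deposited table, at their adjusted p under 0.01 and a fold of at least 1.5, Fas and Pidd1 were lower at 12Gy_24h and no target was called at 12Gy_48h or 4Gy_48h against control. That table also gave Fas, Phlda3, Ercc5 and Ephx1 as higher at 12Gy_48h than at 12Gy_24h, and Gdf15 and Plk2 as higher at 12Gy_48h than at 4Gy_48h.

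Other genes of the pathway were read from 2 further lists, 13 regulators of p53 and 17 other targets, of which 13 and 13 could be tested. The shares of known genes called in each comparison are those set beside the targets above. At 12Gy_24h against control 2 regulators rose and 2 fell, among them Mdm2, and 1 other target rose and 2 fell (Gtse1 and Bax). With known genes alone 0 regulators rose and 3 fell (Cop1, Mdm2 and Trp53). The call of Bax (-0.27, adjusted p = 0.0446) was lost with RLE scaling (0.0858), DESeq2 (0.0939), the replicate block (0.056), no filter (0.469) and without any 1 of control replicates 2 and 3 and the 3 libraries of 12Gy_24h (0.0863 to 0.536). Between 12Gy_48h and 12Gy_24h 2 regulators were higher and 0 lower, and 3 other targets were higher and 1 lower. For 12Gy_48h against control 3 regulators and 2 other targets rose and 0 fell, whereas with known genes alone 1 regulator rose (Trp53bp1), 1 fell (Trp53) and 2 other targets rose. In the fit to all genes these rises were 23.1% of the regulators and 15.4% of the other targets, against 18.2% of known genes. For 4Gy_48h 2 regulators and 1 other target rose while Trp53 and Ccng1 fell, and with known genes alone both falls passed and 0 rose. The fall of Trp53 at 4Gy_48h (-0.43, adjusted p = 0.0326) was lost without any 1 of the 6 libraries (0.0612 to 0.135), without the filter (0.159) and with DESeq2 (0.0536). That of Ccng1 (-0.50, adjusted p = 0.00986) was lost without control replicate 3 (0.0814) or 4Gy_48h replicate 1 (0.0631). Between the doses at 48 h Mdm2 was the only one called. Mdm2, the ubiquitin ligase gene that p53 itself drives, had 187, 215 and 158 CPM at 12Gy_48h, 87.6, 84.9 and 81.7 CPM at 12Gy_24h, 105, 95.0 and 109.5 CPM at 4Gy_48h and 109.6, 154 and 124 CPM in the controls, and its 24 h libraries were below all others. Mdm2 fell at 12Gy_24h (-0.61, SE 0.14, adjusted p = 0.0018) and was higher at 12Gy_48h than at 12Gy_24h (1.14, SE 0.14, adjusted p = 2.52e-05). It rose at 12Gy_48h against control (0.53, SE 0.14, adjusted p = 0.00721), but not with known genes alone (0.34, adjusted p = 0.103). At 48 h it was higher after 12 Gy than after 4 Gy by 0.86 (SE 0.14, adjusted p = 0.00446). Cdkn1a, the cell cycle inhibitor gene, averaged 422 ± 7.40 CPM at 12Gy_48h, 411 ± 20.3 CPM at 12Gy_24h, 369 ± 45.3 CPM at 4Gy_48h and 442 ± 102 CPM in the controls (SD, n = 3) and did not pass in any comparison. Without control replicate 1, Cdkn1a and Mdm2 were called lower at 4Gy_48h against control (adjusted p = 0.0252 and 0.0425).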

How the data were processed

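RNA from 12 libraries of MODE-K cells was measured as reads per gene. The deposited table holds whole-number counts per gene and library without normalization, per the file headers. CPM stand beside them, made by the authors by dividing each count by its column total (4.78e-06 at most from the values obtained here). Other deposited values are the authors' DESeq2 results, an adjusted p and a log2 fold change for each comparison. Per the submitters' processing notes cutadapt 1.9 and FastQC were used. For the aligner, counter, build and strandedness nothing is given in the sources used here. The labels name an Illumina protocol while the loci are named in a long-read style, so the sequencing platform is unclear. Of 33636 lines, 11 were the overflow of a long cell with 0 reads and were left out.

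The test was edgeR 4.0.16 under R 4.3.3 on the counts (filterByExpr with a minimum count of 10, TMM scaling, quasi-likelihood test, 1 mean per group over 12 libraries). P-values are two-sided and Benjamini-Hochberg adjusted over the 15086 genes tested, with a threshold of 0.05. The standard error is the log2 fold change over the square root of F. The edgeR test, not the standard error, was tried on simulated counts with known fold changes. Those counts had a common dispersion and no shift of known genes, unlike these data. Alternatives were RLE scaling, known genes alone, no filter, DESeq2 1.42.0, the replicate number as a block and leaving out each library in turn. P-values measure the spread between these libraries. No 2 libraries of a group agreed within sampling noise (lowest chi-square per degree of freedom 1.72). The largest values within a group were 7.45 and 6.84, for control replicate 1 against control replicates 2 and 3. Between control replicates 2 and 3 the value was 3.42. Control replicate 1 enters every comparison with control. Same-numbered libraries did not deviate together, since 1 of 18 pairs had a correlation over 0.1 (range -0.111 to 0.125). All 31 genes were named by rule, and the genes and lists were chosen with earlier results of these data known. Sequences are from RefSeq (GRCm38.p6) and positions from GENCODE M21 (GRCm38). Limits from 3 reads cover counting error only.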

Additional observations from a re-analysis of the deposited data

Results flagged for a closer look

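Levels differed between the times after 12 Gy for 10 targets, as the direct edgeR comparison of 12Gy_48h with 12Gy_24h passed. There were no unirradiated cells at 24 h or 48 h, so irradiation and time in culture cannot be told apart in these differences. The log2 fold changes were 1.76 for Fas, 1.24 for Gdf15, 0.89 for Ephx1, 0.80 for Phlda3, 0.80 for Ercc5, 0.75 for Sesn2, 0.68 for Zmat3, 0.65 for Ei24, 0.47 for Ak1 and -0.67 for Eda2r. Of all known genes 9.97% were higher and 15.6% lower in the same comparison. The calls of Ei24 and Ak1 were lost when some single libraries were left out. Levels at 48 h differed between the doses for 4 targets, where the comparison of 12Gy_48h with 4Gy_48h passed. The log2 fold changes were 1.64 for Gdf15, 0.74 for Plk2, 0.57 for Phlda3 and 0.56 for Plk3. Of all known genes 2.79% were higher and 1.55% lower in that comparison. Only the call of Gdf15 held without each library in turn and with the replicate block.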

How the results depend on the processing

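With known genes alone, 2 targets were called at 12Gy_48h against control (6 in the fit to all genes) and 1 at 4Gy_48h (3), and over all genes 1453 were called at 12Gy_48h (4995), 1674 at 12Gy_24h (7238) and 130 at 4Gy_48h (2649) against control, and 2330 between 12Gy_48h and 12Gy_24h (4825). The known-gene fit leaves out all other loci and so tests fewer genes, but the same 29 targets were tested in both fits. It also takes out the shift of known genes against control, whose median at 12Gy_48h was 0.20 in the fit to all genes and 0.01 in this one. What lowered the counts was not tested. DESeq2 called 2 targets at 12Gy_48h against control, and without the filter 1113 genes were called between 12Gy_48h and 4Gy_48h (707); the cause was not tested. With the replicate number as a block, 1 target (Gdf15) was called between 12Gy_48h and 4Gy_48h instead of 4, and the other counts of calls stayed within 1.5 times; the numbers were not taken to pair the libraries, as 4 of 12 libraries correlated best with their own number.

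Leaving out 1 library gave 2 to 5 targets at 12Gy_48h, 3 to 10 at 12Gy_24h and 0 to 6 at 4Gy_48h against control (directions are given with the counts above), 8 to 10 between the times and 1 to 3 between the doses. Over all genes it gave 3968 to 4872, 7081 to 7860, 1524 to 2980, 3368 to 4647 and 77 to 431 in the same order. Of the 32 calls of targets, 25 held with known genes alone, 28 with RLE scaling, 23 with DESeq2, 27 without the filter and 27 with the block. No called value changed sign under these alternatives. Genes with few reads, such as Ddb2 and Sesn1, are limited by depth.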
